A study of Mus musculus with 6 samples.

Results

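The genes described here mark the blood vessels of the brain and the meninges, the connective tissue sheets that cover it. They are 31 genes in 2 classes, 14 of meningeal or fibroblast cells and 17 of endothelial or mural (vessel wall) cells. A gene was measured where a probe set, a group of array probes read as 1 value, was annotated to its symbol alone. This gave 52 probe sets for 30 of the genes, among 45037 tested probe sets that name 18193 genes. All 14 meningeal or fibroblast genes and 16 of the endothelial or mural genes were measured. Ly6c1 is named by 1 probe set that also names another gene, and is not analysed here.

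The study measured total RNA of cerebral cortex at postnatal day 29 from HtrA2 KO mice (genotype HtrA2 knockout) and from WT littermates (genotype HtrA2 wild type). There were 3 arrays of each genotype, and no treatment besides. HtrA2 is a serine protease of mitochondria that takes part in their protein quality control. The sources used here do not give the allele, strain or sex of the mice, or whether each array came from a separate animal. The p-values therefore measure only how these samples varied, which may be technical in part.

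Brain capillaries are tubes of endothelial cells joined by tight junctions, which form the blood-brain barrier, and they are wrapped by pericytes in a shared basement membrane. The meninges hold fibroblasts that make fibrillar collagen, proteoglycans, retinoic acid and growth factors, and they reach into the cortex along larger vessels. Whole cortex RNA therefore holds vessel RNA from the tissue itself and meningeal RNA that can vary with how much pia stays on the piece. In such bulk samples, more cells of a type and more RNA per cell cannot be told apart.

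Values are levels on the log2 scale after RMA, the authors' normalization, and a gene is given at its brightest probe set, the one with the highest mean over the 6 arrays. A difference is HtrA2 KO minus WT over 3 arrays each, and the value after ± is its standard error. A gene passed where limma gave an adjusted p under 0.05, by the method of Benjamini and Hochberg, across all 45037 probe sets.

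Array medians lay between 6.40 and 6.45. HtrA2 KO replicate 2 had the narrowest spread of levels (SD 2.34, against 2.41 for both other HtrA2 KO arrays and 2.39 for each WT array). Its highest correlation with an array of its own genotype was 0.9936, against 0.9969 to 0.9976 for the other arrays. At 1 of its 2 probe sets Htra2 itself read 6.42, 7.08 and 6.45 in HtrA2 KO replicates 1, 2 and 3, against 8.89, 8.86 and 9.02 in WT, and it fell by 2.27 with a standard error of 0.17 (adjusted p = 0.0023). The other, brighter Htra2 probe set read 9.35, 9.35 and 9.27 in HtrA2 KO, against 8.23, 8.12 and 8.28 in WT. It rose by 1.11 ± 0.08 (adjusted p = 0.0017). Where its probes lie is not known here, so it checks no label. The Y-linked genes Eif2s3y, Uty and Kdm5d were low in 1 array of each genotype, HtrA2 KO replicate 3 and WT replicate 1. Their mean level was 7.96, 7.76 and 4.02 in HtrA2 KO replicates 1, 2 and 3, and 4.03, 7.74 and 7.73 in WT. The 3 arrays of a genotype thus cannot all be repeats of 1 sample.

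None of the 30 measured genes passed the test. Over all genes 2.44% passed it at the brightest probe set, 1.39% higher and 1.05% lower in HtrA2 KO. The smallest adjusted p of a member at its brightest probe set was 0.0870, for Mgp. At an unadjusted p under 0.05 there were 10 members, all with higher means in HtrA2 KO, or 33.3% of the 30, against 11.3% of all genes that were higher at that level.

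The differences were larger in the meningeal or fibroblast class than in the endothelial or mural class, which is a description and was not tested. Means were higher in HtrA2 KO for 13 of 14 meningeal or fibroblast genes and for 12 of 16 endothelial or mural genes, against 54.9% of all genes. The median difference was 0.41 in the meningeal or fibroblast class and 0.09 in the endothelial or mural class, beside 0.02 over all genes. The 3 HtrA2 KO arrays lay above all 3 WT arrays for 5 of 14 and for 4 of 16 genes, and below them for none; over all genes 15.6% lay above and 12.8% below, 28.4% in either direction.

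**Figure D1:**
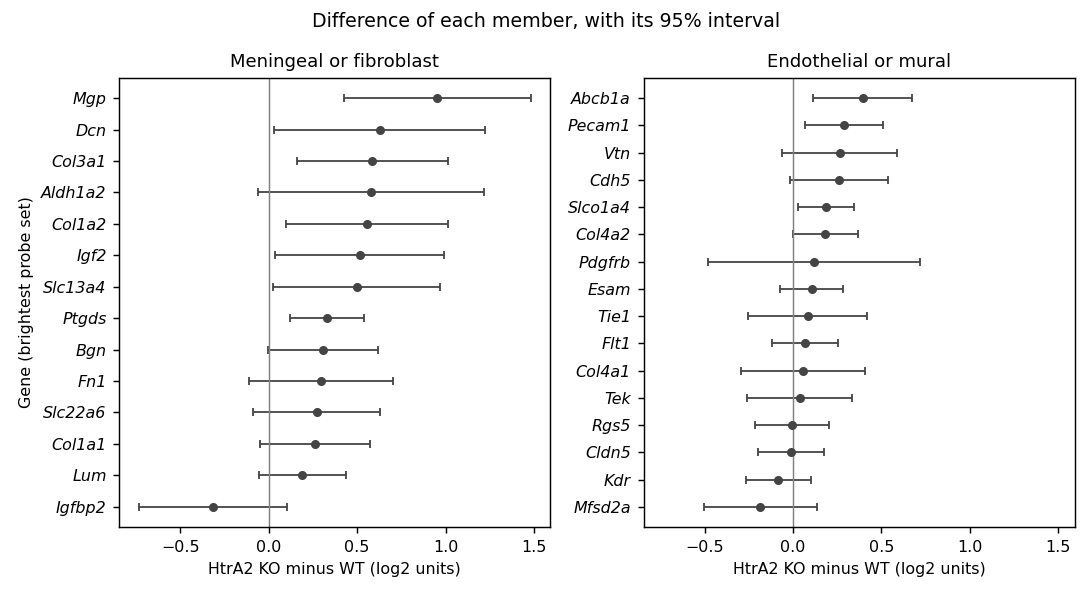
Difference between HtrA2 KO and WT (log2 units, horizontal) for the 14 meningeal or fibroblast genes (left) and the 16 endothelial or mural genes (right). Points are the estimates and bars the 95% intervals of the limma fit with 3 arrays per genotype, unadjusted for the number of genes. The differences run from -0.32 (Igfbp2) to 0.95 (Mgp) on the left and from -0.19 (Mfsd2a) to 0.39 (Abcb1a) on the right.

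The 3 HtrA2 KO arrays were not alike. Averaged over the 14 meningeal or fibroblast genes, the level minus the WT mean was 0.41, 0.07 and 0.74 in HtrA2 KO replicates 1, 2 and 3, against -0.06, -0.07 and 0.13 in WT replicates 1, 2 and 3. Replicates 1 and 3 of HtrA2 KO thus lay above every WT array, and replicate 2 lay inside the WT range. The same average over the 16 endothelial or mural genes was 0.15, -0.04 and 0.22 in HtrA2 KO, against 0.01, -0.07 and 0.06 in WT. By this average the order of the HtrA2 KO arrays was the same in both classes, over a smaller range in the vessel class. By the median over genes, replicate 1 was just above replicate 3 in the vessel class (0.187 and 0.177).

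HtrA2 KO replicate 2 was the lowest of the 3 HtrA2 KO arrays for 13 of 14 meningeal or fibroblast genes and 10 of 16 endothelial or mural genes, against 42.4% of all genes. Replicate 3 was the highest for 12 of 14 and 10 of 16, against 27.7% of all genes. After further quantile normalization, which removes the narrower spread of replicate 2, the meningeal or fibroblast average was 0.38, 0.12 and 0.71 in HtrA2 KO replicates 1, 2 and 3, against -0.06, -0.08 and 0.13 in WT.

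Without HtrA2 KO replicate 2 the fit called 12 of the 30 members, all higher, while 6.35% of all genes were then called higher and 8.82% in either direction. These were 8 of the meningeal or fibroblast class (Col1a2, Col3a1, Igf2, Slc22a6, Slc13a4, Ptgds, Aldh1a2 and Mgp) and 4 of the endothelial or mural class (Cdh5, Vtn, Pdgfrb and Abcb1a). Without that array both remaining HtrA2 KO arrays lay above all WT arrays for 12 of 14 meningeal or fibroblast genes and 8 of 16 endothelial or mural genes, against 26.9% of all genes. Leaving out any other single array left 0 members called, while 0.209% to 1.13% of all genes were then called in either direction. With array weights, which give arrays far from their group less influence, 13 of 30 members were called, all higher, while 7.67% of all genes were called higher and 12% in either direction. Robust limma-trend called Ptgds and Mgp, while 3.06% of all genes were called higher and 5.45% in either direction. At an adjusted p under 0.10 Mgp was called, beside 3.31% of all genes higher and 5.9% in either direction. Without HtrA2 KO replicate 3, which is low in Y-linked genes, the mean meningeal or fibroblast difference was 0.24 in place of 0.40, and without replicate 2 it was 0.57. The mean endothelial or mural difference was 0.11 with all arrays, 0.06 without replicate 3 and 0.18 without replicate 2.

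**Figure D2:**
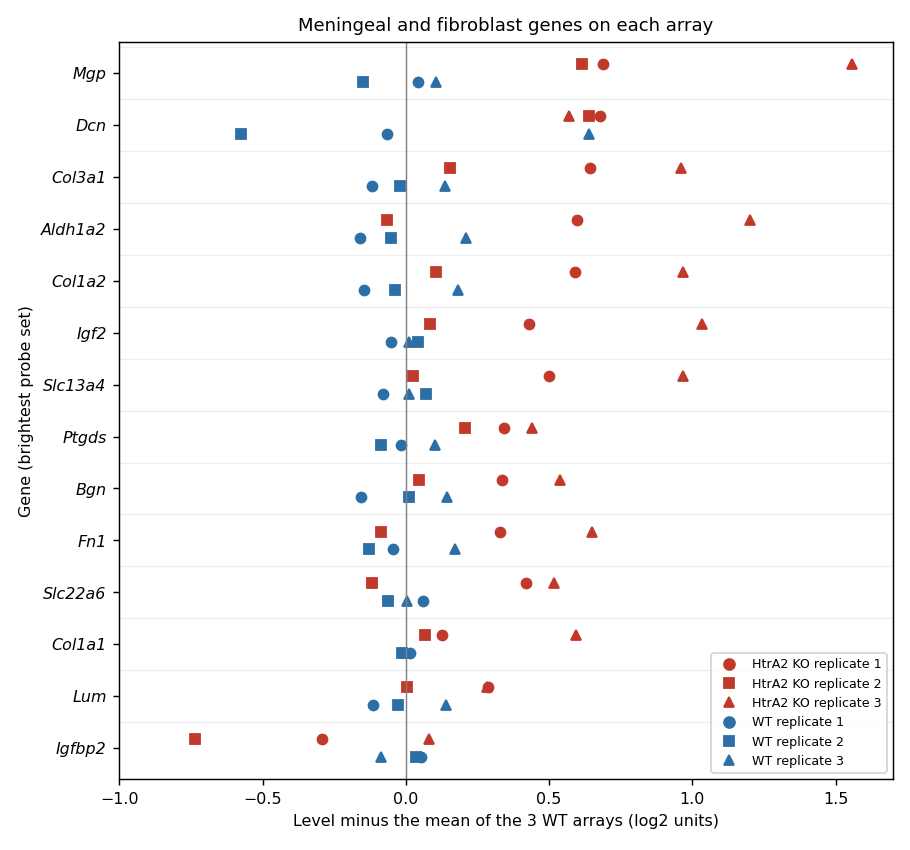
Level of each meningeal or fibroblast gene on each array, as the difference from the mean of the 3 WT arrays (log2 units), with genes in order of their difference. Red symbols are HtrA2 KO arrays (upper in each row) and blue symbols WT arrays (lower), with a circle, square and triangle for replicates 1, 2 and 3. HtrA2 KO replicate 2 is the lowest red symbol in 13 of 14 rows, and Igfbp2 is the row with a lower mean in HtrA2 KO.

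Among the matrix genes, Mgp, the matrix Gla protein that holds back calcification of vessels and cartilage, had the largest difference of any member. It read 10.20, 10.13 and 11.07 in HtrA2 KO replicates 1, 2 and 3, against 9.55, 9.36 and 9.62 in WT. All 3 HtrA2 KO arrays were above WT, replicate 3 by the widest margin. The difference was 0.95 ± 0.23 (1.94-fold, 95% interval 0.42 to 1.48, adjusted p = 0.0870), which did not pass.

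The fibrillar collagens are the chains of type I collagen, Col1a1 and Col1a2, and the single chain of type III collagen, Col3a1. Col3a1 read 8.52, 8.03 and 8.84 in HtrA2 KO, against 7.76, 7.85 and 8.01 in WT. The groups did not overlap, though HtrA2 KO replicate 2 was level with WT replicate 3, and the difference was 0.59 ± 0.19 (adjusted p = 0.160). Its dim second probe set differed by 0.08 ± 0.11.

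Col1a2 read 9.00, 8.52 and 9.38 in HtrA2 KO, against 8.27, 8.37 and 8.59 in WT. HtrA2 KO replicate 2 lay inside the WT range, and the difference was 0.56 ± 0.20 (adjusted p = 0.210). A second Col1a2 probe set differed by 0.77 ± 0.26, without overlap, and another, dim one by 0.04 ± 0.08. Col1a1 read 7.40, 7.34 and 7.87 in HtrA2 KO, against 7.29, 7.26 and 7.27 in WT. Replicates 1 and 2 of HtrA2 KO were just above WT and replicate 3 was well above, for a difference of 0.26 ± 0.13 (adjusted p = 0.381).

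The 250 bases before the transcript start of Col1a2 and Col3a1 are shown. Windows were sought for the fibrillar collagens Col1a1, Col1a2 and Col3a1, and the reference used here held none for Col1a1. The sequences are from RefSeq (GRCm38.p6, forward strand of both genes), at chr6:4505368-4505617 for Col1a2 and chr1:45311288-45311537 for Col3a1. Capitals mark each CCAAT or TATAAA found on either strand.
Col1a2: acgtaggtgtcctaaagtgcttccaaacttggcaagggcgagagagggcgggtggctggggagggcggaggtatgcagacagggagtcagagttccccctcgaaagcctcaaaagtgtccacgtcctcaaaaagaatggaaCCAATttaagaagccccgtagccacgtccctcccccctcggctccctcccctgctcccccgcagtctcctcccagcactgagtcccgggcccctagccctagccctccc
Col3a1: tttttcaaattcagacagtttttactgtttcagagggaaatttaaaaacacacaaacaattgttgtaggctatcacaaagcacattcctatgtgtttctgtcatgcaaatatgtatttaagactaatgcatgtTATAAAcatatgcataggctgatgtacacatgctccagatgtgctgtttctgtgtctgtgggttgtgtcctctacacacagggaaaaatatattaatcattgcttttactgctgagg
The Col1a2 window holds 1 CCAAT, which begins 109 bases before the start, and the Col3a1 window 1 TATAAA, which begins 117 bases before it. CCAAT and TATAAA were searched on both strands, and the matches do not overlap one another. GGGCGG and GGAA were also planned, and their matches are left unmarked and uncounted in the sequences above. Of 32851 mouse windows of this length, 33.8% held CCAAT on either strand, 12.4% TATAAA, 32.7% GGGCGG and 93.4% GGAA. The matches describe letters and not sites in use. The windows shown were chosen after the values were seen.

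Decorin, lumican and biglycan are small proteoglycans that bind collagen fibrils. Decorin, Dcn, read 10.73, 10.69 and 10.62 in HtrA2 KO, against 9.99, 9.48 and 10.70 in WT. Here the spread lay in WT, where replicate 3 was level with HtrA2 KO and replicate 2 was the lowest array, and the difference was 0.63 ± 0.26 (adjusted p = 0.270). Its SD was 0.05 in HtrA2 KO and 0.61 in WT, the reverse of the other meningeal genes with a difference over 0.5. Members that overlapped between groups and are given array by array (Dcn, Col1a2, Bgn, Igfbp2, Aldh1a2, Slc13a4, Slc22a6, Mfsd2a, Cldn5, Tek, Pdgfrb and Vtn) were singled out after their values were seen.

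Biglycan, Bgn, read 8.06, 7.77 and 8.26 in HtrA2 KO, against 7.57, 7.74 and 7.87 in WT, and differed by 0.31 ± 0.13 (adjusted p = 0.302). A second Bgn probe set read 7.74, 7.50 and 7.81 in HtrA2 KO, against 7.25, 7.17 and 7.34 in WT. It did not overlap between groups and had the smallest adjusted p of all 52 member probe sets (difference 0.43 ± 0.10, adjusted p = 0.0787). Its remaining probe set also did not overlap and differed by 0.13 ± 0.08. Lumican, Lum, differed by 0.19 ± 0.11, and fibronectin, Fn1, a matrix protein that binds cells to collagen, by 0.30 ± 0.18, while a dim Fn1 probe set differed by -0.11 ± 0.09.

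Among secreted signals and enzymes, Igf2 encodes a growth factor that meninges and choroid plexus release. It read 10.14, 9.80 and 10.74 in HtrA2 KO, against 9.66, 9.75 and 9.72 in WT. The groups did not overlap, but HtrA2 KO replicate 2 was just above the highest WT array. The difference was 0.52 ± 0.21 (adjusted p = 0.258).

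Igfbp2, which binds insulin-like growth factors, was the 1 meningeal gene with a lower mean in HtrA2 KO. It read 8.98, 8.54 and 9.36 in HtrA2 KO, against 9.33, 9.31 and 9.19 in WT. HtrA2 KO replicate 3 was the highest and replicate 2 the lowest of all 6 arrays, and the difference of -0.32 ± 0.18 did not pass (adjusted p = 0.441).

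Ptgds, the lipocalin-type prostaglandin D synthase made by leptomeninges and oligodendrocytes, read 14.04, 13.91 and 14.14 in HtrA2 KO, against 13.68, 13.62 and 13.80 in WT. Every HtrA2 KO array was above every WT array, replicate 2 included. The difference was 0.33 ± 0.09 (adjusted p = 0.117), and a second probe set, also without overlap, differed by 0.61 ± 0.16 (adjusted p = 0.103). Aldh1a2, the enzyme with which meninges make retinoic acid, read 8.17, 7.51 and 8.78 in HtrA2 KO, against 7.42, 7.52 and 7.78 in WT. It had the widest spread of the class in HtrA2 KO (SD 0.63, against 0.19 in WT), and the difference was 0.58 ± 0.28 (adjusted p = 0.346).

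Both membrane transporters of the class followed replicates 1 and 3. Slc13a4, a sodium-coupled sulfate transporter, read 8.56, 8.09 and 9.03 in HtrA2 KO, against 7.98, 8.13 and 8.07 in WT (difference 0.50 ± 0.21, adjusted p = 0.271). Slc22a6, the organic anion transporter OAT1, read 7.27, 6.74 and 7.37 in HtrA2 KO, against 6.91, 6.79 and 6.86 in WT (difference 0.27 ± 0.16, adjusted p = 0.438). In HtrA2 KO replicate 2 Slc22a6 was below all WT arrays.

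**Figure D3:**
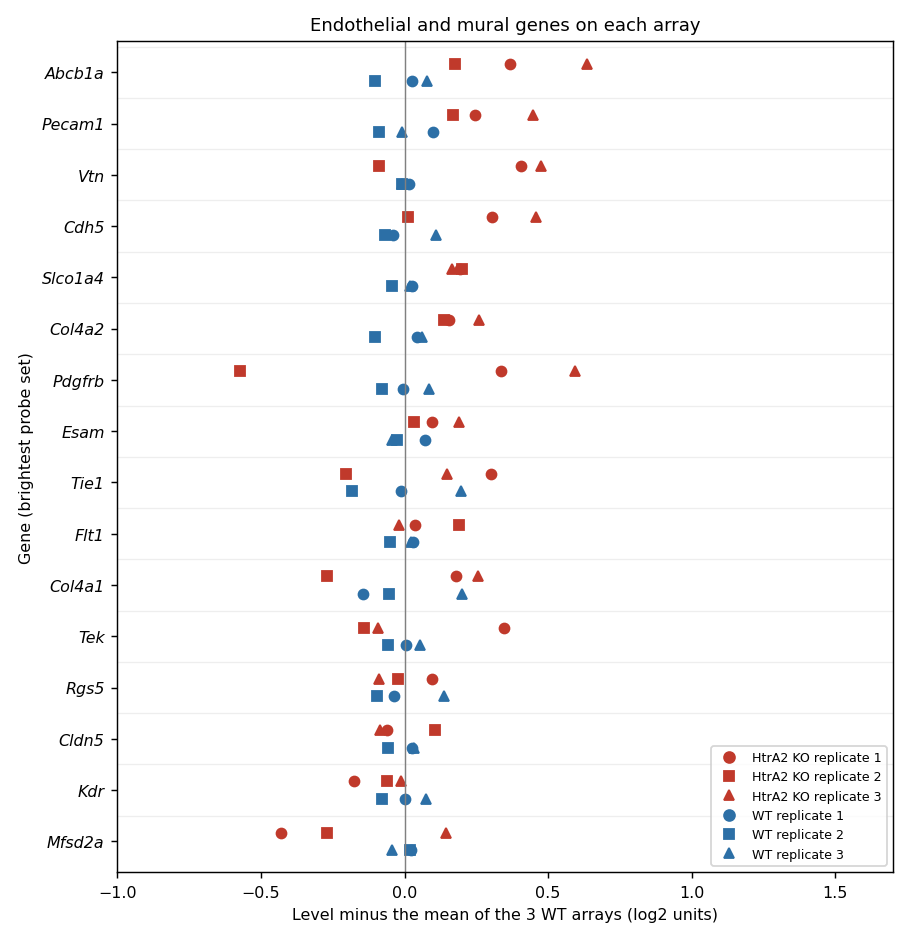
Level of each endothelial or mural gene on each array, as the difference from the mean of the 3 WT arrays (log2 units), drawn on the same horizontal scale and with the same symbols as the meningeal plot. Abcb1a, Pecam1, Slco1a4 and Col4a2 have all HtrA2 KO arrays (red) right of all WT arrays (blue), and Pdgfrb has the widest HtrA2 KO spread.

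In the vessel class the barrier transporters differed in sign. Abcb1a, the P-glycoprotein efflux pump, read 8.64, 8.45 and 8.91 in HtrA2 KO, against 8.30, 8.17 and 8.35 in WT. The groups did not overlap and the difference was 0.39 ± 0.12 (adjusted p = 0.149), the largest of the class. At its second probe set HtrA2 KO replicate 2 was the lowest of the 6 arrays and the difference was 0.21 ± 0.25.

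Slco1a4, an organic anion transporter of brain endothelium, read 9.87, 9.88 and 9.84 in HtrA2 KO, against 9.70, 9.63 and 9.70 in WT. The HtrA2 KO arrays were tight (SD 0.02) and all above WT, with a difference of 0.19 ± 0.07 (adjusted p = 0.218). Mfsd2a, the lipid transporter that restrains transcytosis in barrier endothelium, read 8.21, 8.37 and 8.78 in HtrA2 KO, against 8.66, 8.66 and 8.60 in WT. Its HtrA2 KO arrays lay on both sides of WT, and the difference was -0.19 ± 0.14 (95% interval -0.50 to 0.13).

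None of the junction and adhesion genes passed the test. Pecam1, an adhesion molecule of endothelial borders, read 7.13, 7.06 and 7.34 in HtrA2 KO, against 6.99, 6.80 and 6.88 in WT, without overlap (difference 0.29 ± 0.10, adjusted p = 0.179). Cdh5, VE-cadherin of adherens junctions, differed by 0.26 ± 0.12 and by -0.05 ± 0.08 at a dim probe set, and Esam, an endothelial adhesion molecule, by 0.11 ± 0.08. Cldn5, the main claudin of barrier tight junctions, read 9.76, 9.92 and 9.73 in HtrA2 KO, against 9.84, 9.76 and 9.85 in WT. Its difference was -0.01 ± 0.08, with a 95% interval of -0.20 to 0.17.

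The endothelial receptors all overlapped between groups. Flt1 and Kdr, receptors of vascular endothelial growth factors, differed by 0.07 ± 0.08 and -0.08 ± 0.08, and the 95% interval of Kdr ran from -0.27 to 0.10. The other 3 probe sets of Flt1 differed by -0.25 ± 0.15, 0.09 ± 0.16 and -0.08 ± 0.11, on both sides of 0. Tek, the receptor of angiopoietins, read 8.29, 7.80 and 7.85 in HtrA2 KO, against 7.95, 7.88 and 7.99 in WT. Only HtrA2 KO replicate 1 was above WT for Tek, and the difference was 0.04 ± 0.13. Tie1, the related receptor, differed by 0.08 ± 0.15.

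Of the mural genes, Pdgfrb, the receptor through which pericytes are recruited, read 9.28, 8.38 and 9.54 in HtrA2 KO, against 8.94, 8.87 and 9.03 in WT. HtrA2 KO replicates 1 and 3 were above all WT arrays and replicate 2 below them, so the difference was 0.12 ± 0.26. Its second probe set was tighter and differed by 0.11 ± 0.09. Vtn, vitronectin, made by pericytes, read 10.53, 10.03 and 10.60 in HtrA2 KO, against 10.14, 10.11 and 10.11 in WT, with replicates 1 and 3 again above WT and replicate 2 below (difference 0.26 ± 0.14). Rgs5, a G protein regulator of pericytes, had differences of -0.01, -0.11, -0.10 and -0.15 at its 4 probe sets, with standard errors of 0.08 to 0.17.

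The basement membrane collagens Col4a1 and Col4a2 form the type IV network under endothelium. Col4a2 read between 8.09 and 8.22 in HtrA2 KO, against between 7.85 and 8.02 in WT, without overlap (difference 0.18 ± 0.08, adjusted p = 0.299). Col4a1 differed by 0.06 ± 0.15, and by 0.15 ± 0.08 at a second probe set that did not overlap between groups. Over all 52 member probe sets 15 lay wholly above WT and 0 wholly below, beside 11.6% of all probe sets in each direction and 23.2% in either. Of the 52, 0 passed the test, beside 1.77% of all probe sets, 0.884% higher and 0.884% lower.

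Further genes of the same tissues were read from lists of their known markers. Counts in this and each later list stand beside these shares of all 18193 genes. At the brightest probe set 1.39% were called higher and 1.05% lower, and 54.9% had higher means in HtrA2 KO. At an unadjusted limma p under 0.05, 11.3% were higher and 1672 genes were lower. Counts near those shares are not read as results about a list. Of 46 further meningeal or fibroblast genes, 0 passed the limma test, 17 were higher and 1 lower at an unadjusted p under 0.05, and 38 had higher means in HtrA2 KO. Their median difference was 0.31. Their arrays stood as those of the members did: the mean over the list was 0.36, 0.02 and 0.63 in HtrA2 KO replicates 1, 2 and 3, against -0.01, -0.06 and 0.08 in WT.

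The 4 with the smallest p were Col6a2 and Col5a1, chains of type VI and type V collagen, Lox, which cross-links collagen, and Postn, the matrix protein periostin. They differed by 0.66 ± 0.13 (adjusted p = 0.0517), 0.36 ± 0.07 (adjusted p = 0.0533), 0.40 ± 0.09 (adjusted p = 0.0817) and 0.64 ± 0.16 (adjusted p = 0.0890). In each the groups did not overlap at the brightest probe set, HtrA2 KO replicate 2 included. Of the 3 probe sets of Col5a1, 2 had higher means in HtrA2 KO. Col6a2 read 8.81, 8.94 and 9.24 in HtrA2 KO, against 8.32, 8.18 and 8.51 in WT. Fmod, fibromodulin, a proteoglycan that binds collagen, had the largest difference of the list and was singled out after its values were seen. It read 9.73, 8.94 and 10.52 in HtrA2 KO, against 8.33, 8.25 and 8.73 in WT, all HtrA2 KO arrays above WT, and differed by 1.29 ± 0.35 (adjusted p = 0.110).

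**Figure D4:**
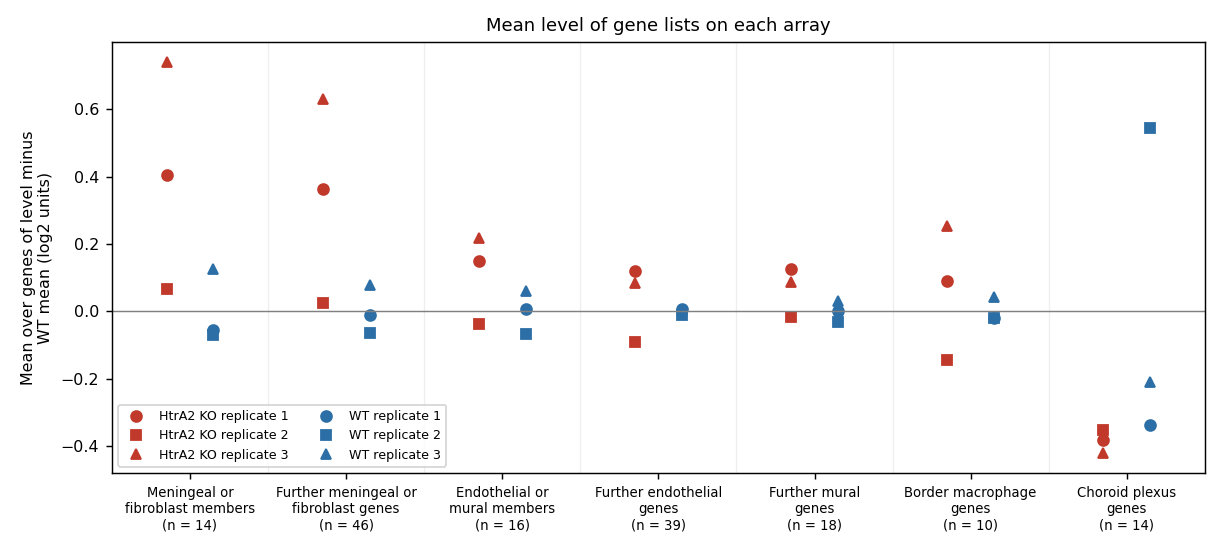
Mean over the genes of a list of the level minus the WT mean (log2 units, vertical) on each array, for the 2 member classes, 3 further lists of the same tissues and 2 lists of other cell types, with the number of genes in brackets. Red symbols are HtrA2 KO arrays and blue symbols WT arrays, with a circle, square and triangle for replicates 1, 2 and 3. HtrA2 KO replicates 1 and 3 lie above all WT arrays in every list but the choroid plexus list, by the widest margin in both meningeal lists. WT replicate 2 stands apart in the choroid plexus list.

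The 39 further endothelial genes had no common shift (median -0.04), with 2 that rose and 0 that fell, beside 1.39% and 1.05% of all genes. At an unadjusted p under 0.05, 6 were higher and 5 lower. The list mean was 0.12, -0.09 and 0.08 in HtrA2 KO replicates 1, 2 and 3, against 0.008, -0.010 and 0.002 in WT. HtrA2 KO replicate 2 was the lowest HtrA2 KO array for 28 of the 39, against 42.4% of all genes. Slc7a1, the cationic amino acid transporter CAT1, read 11.12, 11.03 and 11.03 in HtrA2 KO, against 10.33, 10.46 and 10.53 in WT, and rose by 0.62 ± 0.08 (adjusted p = 0.0157). A second Slc7a1 probe set rose as well and another, dim one differed by -0.10 ± 0.15. Slc7a5, the large neutral amino acid transporter LAT1, read 9.56, 9.15 and 9.34 in HtrA2 KO, against 8.23, 8.36 and 8.74 in WT, and rose by 0.90 ± 0.15 (adjusted p = 0.0322). Both transporters are also made by cells other than endothelium.

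The transferrin receptor Tfrc, which brings iron across the barrier, differed by -0.37 ± 0.07 (adjusted p = 0.0503), just outside the threshold, and Palmd by -0.33 ± 0.07 (adjusted p = 0.0645). Of 18 further mural genes 0 passed (4 higher and 1 lower at an unadjusted p under 0.05), with a median of 0.08. The contractile genes Myh11, Tpm2 and Acta2 differed by 0.33 ± 0.10, 0.25 ± 0.08 and 0.19 ± 0.08, and Mylk, myosin light chain kinase, by -0.38 ± 0.11, all 4 without overlap. Means were higher in HtrA2 KO at 1 of 2 probe sets of Myh11, 3 of 4 of Tpm2, 2 of 3 of Acta2 and 0 of 3 of Mylk.

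Of 30 ligands and receptors that act on vessels, 1 rose and 1 fell (median -0.08). Angpt1, the ligand of Tek, read 8.54, 8.05 and 8.41 in HtrA2 KO, against 7.54, 7.39 and 7.64 in WT. It rose by 0.80 ± 0.13 (1.75-fold, adjusted p = 0.0305), and its second probe set differed by 0.42 ± 0.14 (adjusted p = 0.170), while Tek itself differed by 0.04 as given above. Ndp, which encodes norrin, a ligand of the endothelial receptor Fzd4, read 6.51, 6.36 and 6.12 in HtrA2 KO, against 6.86, 7.08 and 7.05 in WT. It fell by 0.66 on the log2 scale with a standard error of 0.11 (adjusted p = 0.0351). Nrp1, a coreceptor of vascular endothelial growth factors, and Pdgfra differed by -0.42 ± 0.12 and -0.29 ± 0.12 without passing.

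Of 14 further basement membrane genes 1 rose, 8 had lower means in HtrA2 KO, and the median difference was -0.03. Sparc, which binds collagen and is made by endothelium and glia, read 12.49, 12.51 and 12.58 in HtrA2 KO, against 11.83, 11.87 and 11.96 in WT. Its arrays were tight in both groups, HtrA2 KO replicate 2 stood with the others, and it rose by 0.64 ± 0.07 (1.56-fold, adjusted p = 0.0114). A second Sparc probe set rose by 0.71 ± 0.12 (adjusted p = 0.0301) and a dim remaining one differed by 0.11 ± 0.11. None of the 7 laminin genes on the list passed, and their signs were mixed. Lama1, Lamb2 and Lama2 differed by 0.22 ± 0.10, 0.26 ± 0.21 and 0.15 ± 0.11. Lama4, Lama5, Lamb1 and Lamc1 differed by -0.10 ± 0.10, -0.10 ± 0.09, -0.11 ± 0.12 and -0.12 ± 0.10. Means were nonetheless higher in HtrA2 KO at 2 of 3 probe sets of Lama5 and 1 of 4 of Lamb1.

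**Figure D5:**
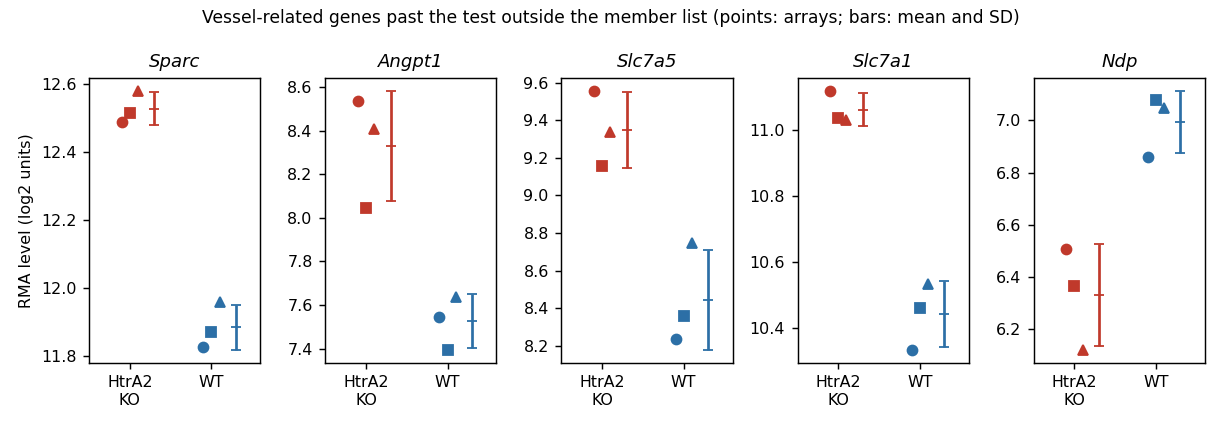
Level (log2 units, vertical, a scale for each gene) of the 5 vessel-related genes outside the member list that passed the test, on the 3 HtrA2 KO arrays (red, left) and the 3 WT arrays (blue, right). Circles, squares and triangles are replicates 1, 2 and 3, and the bars beside them give the mean and SD; Sparc, Angpt1, Slc7a5 and Slc7a1 are higher in HtrA2 KO and Ndp is lower.

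None of these 5 calls held under every omission of 1 array. Leaving out 1 array at a time, Sparc kept its call in 3 of 6 omissions (without HtrA2 KO replicate 1 or 2 or WT replicate 3). Slc7a1 and Ndp kept theirs without HtrA2 KO replicate 1 or 2, Slc7a5 without HtrA2 KO replicate 2 or WT replicate 3, and Angpt1 without HtrA2 KO replicate 2. The differences themselves moved less, for Sparc between 0.61 and 0.68 and for Angpt1 between 0.70 and 0.95.

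Of 11 further genes of retinoid handling 0 passed (1 higher and 2 lower at an unadjusted p under 0.05). Aldh1a1, a second retinaldehyde dehydrogenase, and the receptor Rarb differed by -0.55 ± 0.12 (adjusted p = 0.0641) and -0.53 ± 0.13 (adjusted p = 0.0910), opposite in sign to Aldh1a2. Cyp26b1, which breaks down retinoic acid, differed by 0.64 ± 0.23. Of 9 further genes of the insulin-like growth factor system 0 passed (3 higher and 1 lower at an unadjusted p under 0.05). The binding proteins Igfbp3, Igfbp5 and Igfbp6 differed by 0.57 ± 0.17, 0.39 ± 0.11 and -0.39 ± 0.15, and the insulin receptor Insr by 0.30 ± 0.10.

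Markers of other tissue that a cortex dissection can carry were read beside these lists. Of the choroid plexus genes 12 of 14 had lower means in HtrA2 KO, 0 passed (0 higher and 3 lower at an unadjusted p under 0.05), and the median was -0.20. WT replicate 2 stood apart there. The summed linear level of the 14 genes was 777 to 812 in HtrA2 KO and 936 to 8344 in WT. Ttr, transthyretin, the most abundant choroid plexus transcript, read 7.34, 7.61 and 7.32 in HtrA2 KO, against 8.46, 12.86 and 8.62 in WT. No marker is at 0 on an RMA scale, which has no true zero. Igf2 and Igfbp2 are also made by choroid plexus, and the part of that tissue in their values was not tested. Without WT replicate 2 the mean meningeal or fibroblast difference was 0.37, beside 0.40 with all arrays.

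Border macrophages, which live in the meninges and around vessels, had 0 of 10 genes past the test (0 higher and 2 lower at an unadjusted p under 0.05). Their list mean was 0.09, -0.14 and 0.25 in HtrA2 KO replicates 1, 2 and 3, against -0.02, -0.02 and 0.04 in WT. By this mean the HtrA2 KO arrays had the same order as in the meningeal class. By the median over genes, replicate 1 was above replicate 3 (0.12 and 0.09). The summed linear level of the 10 genes was 791 to 1047 in HtrA2 KO and 851 to 898 in WT. The largest difference was that of Cd163, 0.55 ± 0.27, while Ms4a7 and Stab1 differed by -0.23 ± 0.07 and -0.20 ± 0.07. Of 4 measured genes of red blood cells, 1 fell, Alas2, the first enzyme of heme synthesis in those cells, by 0.87 with a standard error of 0.16 (adjusted p = 0.0416). Alas2 read 6.42, 7.13 and 6.76 in HtrA2 KO, against 7.61, 7.67 and 7.65 in WT, and leaving out any array but HtrA2 KO replicate 2 ended its call (adjusted p of 0.0591 to 0.196). The list had 8 red blood cell genes. The globin genes Hbb-bs and Hbb-b1 are named only where a probe set also names another gene, and were not measured. All 4 measured genes had lower means in HtrA2 KO, with a summed linear level of 1054 to 1272 in HtrA2 KO and 1341 to 1421 in WT. Most of that sum is Bpgm, which read 10.16, 9.76 and 10.07 in HtrA2 KO, against 10.18, 10.19 and 10.09 in WT, overlapped between groups and differed by -0.16 ± 0.11. Hba-a1 was dim, between 4.07 and 4.32 in HtrA2 KO and between 4.29 and 4.34 in WT, and differed by -0.11 ± 0.08. The part of residual blood or macrophages in the vessel values was not tested.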

How the data were processed

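The deposited table holds log2 values of 45101 probe sets on 6 arrays. RMA is named, without a version, in the submitters' processing notes. No source used here names the logarithm's base; base 2 was assumed, since the values run as RMA values on that base do. RMA makes the arrays' distributions alike, so a shift shared by most genes would not show. The arrays give no counts, and their number limits the precision.

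From these values, 64 control probe sets were left out and 45037 tested with limma 3.58.1 in R 4.3.3 (lmFit and eBayes, two-sided, genotype the only term). The platform annotation gave 1 symbol to 34945 of them, several to 932 and none to 9160, and 34741 were matched by gene identifier to RefSeq (GRCm38.p6) for current symbols. Members, gene lists and the rule for named genes were chosen with earlier results of these data known. The rule gives array values for members past the test or without overlap, and up to 4 genes by smallest p in each further list. Members that overlapped between groups but are given array by array, the other 4 laminin genes and Fmod were added after their values were seen. Promoters were to be shown for members past the test. As there were none, the fibrillar collagens were chosen later, and no window was available for Col1a1. On simulated data over 45037 probe sets the fit recovered 80 of 100 changes of 1 log2 unit and 100 of 100 of 2, with 7 false calls among 187. The member differences were smaller than 1 unit, and the simulated noise was drawn for each probe set alone. Recovery at those sizes, or under shifts that many genes of an array share, was not simulated. Alternatives tried were leaving dim probe sets out, robust limma-trend, quantile normalization, median centring, array weights, a block for replicate number, a covariate for Y-linked genes, stricter and looser thresholds, other probe set rules and leaving out each array.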

Additional observations from a re-analysis of the deposited data

How the results depend on the processing

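The count of 796 probe sets past the test was 1757 without dim probe sets, 1770 with robust limma-trend, 4205 with array weights, 445 with a covariate for Y-linked genes, 79 at an adjusted p under 0.01, 2035 at 0.10 and 65 to 3037 with 1 array left out. With array weights, 9 meningeal or fibroblast and 4 endothelial or mural members were called higher, beside 7.67% of all genes. Robust limma-trend called 2 (Ptgds and Mgp) and the threshold of 0.10 called 1 (Mgp), both in the meningeal or fibroblast class. Leaving out 1 array gave 0 to 8 meningeal or fibroblast and 0 to 4 endothelial or mural members called higher. Of all genes, 0.143% to 6.35% were called higher in those runs. Members without overlap then numbered 5 to 12 higher and 0 to 1 lower in the meningeal or fibroblast class, and 4 to 8 higher and 0 to 1 lower in the endothelial or mural class, while 18.2% to 26.9% of all genes lay above and 15.2% to 21.1% below. The highest counts, 12 and 8, and the highest share of all genes came without HtrA2 KO replicate 2. No member was called lower in any alternative run.

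Of the further listed genes 4 were called higher and 2 lower, beside 1.39% of all genes higher and 1.05% lower. These counts were 7 and 5 without dim probe sets, 37 and 10 with array weights, 9 and 6 at 0.10, 0 and 0 at 0.01, and 0 to 34 and 0 to 7 with 1 array left out. They were 6 and 4 both with robust limma-trend and with quantile normalization, and 2 and 2 with the Y-linked covariate.

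With the replicate number as a block 154 probe sets passed, 0 members, and 1 further gene higher (Angpt1) and 0 lower. The labels do not say that the numbers pair mice, and same-numbered arrays did not deviate together (correlations of -0.20, -0.04 and -0.17), so the numbers are taken as names.

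Direction at the brightest probe set turned, over all alternatives, for 6 members near 0. Rgs5 was 0.0011 with median centring and 0.0367 with array weights. With 1 array left out the lowest and highest differences were -0.0735 and 0.0233 for Cldn5, -0.116 and 0.127 for Tek, -0.0270 and 0.225 for Tie1, -0.0454 and 0.219 for Col4a1, -0.0558 and 0.0623 for Rgs5, and -0.118 and 0.465 for Pdgfrb. The other 24 members kept their sign at that probe set in every alternative run. Signs were not read for the mean over all probe sets of a gene, and the 4 Flt1 probe sets differed on both sides of 0. The cause of these shifts was not tested.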
